A study of Homo sapiens with 12 samples.

Results

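ATF4, a transcription factor of the integrated stress response, and 9 genes of the same response were followed across the 4 groups of the series. The 10 genes were chosen by symbol (ATF4, ATF5, DDIT3, DDIT4, TRIB3, CHAC1, ASNS, CEBPB, PPP1R15A and VLDLR) out of 60617 genes in the deposited count table, and each symbol matched 1 Ensembl gene. All 10 passed the filter on low counts and were tested among 18524 genes. In the integrated stress response, kinases that sense endoplasmic reticulum stress, amino acid shortage, double-stranded RNA or haem shortage phosphorylate the translation factor eIF2, which lowers general protein synthesis. Translation of a few messages with upstream open reading frames, ATF4 among them, rises instead, and ATF4 then drives genes of amino acid supply, redox balance and, when stress lasts, cell death. ATF4 is controlled to a large part at translation, which RNA sequencing does not measure.

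RNA of A549, a human lung adenocarcinoma cell line, was sequenced in 12 libraries, 3 for each group. The groups were unmodified cells (WT), cells labelled by genotype as YTHDF1 knockout (YTHDF1 KO; YTHDF1 binds N6-methyladenosine in RNA), cells with small interfering RNA against ARID1A (siARID1A; ARID1A is a subunit of the SWI/SNF chromatin remodeller), and YTHDF1 KO cells that also had siARID1A (the combined group). All groups were A549 cells grown in 1 medium, and the labels name no control small interfering RNA for WT or YTHDF1 KO. Titles name a knockdown of YTHDF1 where genotypes name a knockout, clone or pool is not stated, and replicates are called biological without naming separate cultures, so p-values measure the spread between libraries.

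YTHDF1 RNA stood at 88.2 ± 2.57 CPM (counts scaled to library size, SD, n = 3) in WT and 24.9 ± 2.08 in YTHDF1 KO, and ARID1A at 164 ± 14.1 CPM in WT and 42.5 ± 2.12 in siARID1A. In the combined group they stood at 30.9 ± 1.11 and 54.2 ± 6.51 CPM. Library totals ran from 30220717 to 45042635 counts. Over all genes, WT replicate 2 was the least like the other WT libraries. The chi-square per degree of freedom between its counts and those of WT replicates 1 and 3 was 50.4 and 48.7. It was 12.5 between WT replicates 1 and 3, and 3.35 to 12.9 within the other groups. Mitochondrially encoded genes held 4.85% of the counts of WT replicate 2 and 6.81% to 8.23% elsewhere. All 4 alveolar type II markers checked were below 1 CPM in all 12 libraries, and so were 9 of 10 markers of blood, endothelial and stromal cells, of which 1 had 0 counts throughout. The summed level of 6 epithelial markers was mostly KRT7, KRT8 and KRT18. It was 7791 to 9949 CPM in WT and 6905 to 8353 in siARID1A. YTHDF1 KO had 3534 to 3803 CPM and the combined group 3894 to 4201. With siARID1A, KRT8 stood at 75.4% of its WT mean, KRT18 at 90.2%, KRT7 at 109%, CDH1 at 164% and EPCAM at 232%. In the combined group CDH1 stood at 105%, KRT7 at 56.2%, KRT18 at 49.3%, EPCAM at 47.2% and KRT8 at 37.6%. KRT19 averaged at most 1.02 CPM in any group. The part of these markers in the results below was not tested. WT replicate 3 had the highest level of the 3 WT libraries for 9 of the 10 genes, all but ATF5. Values without it are therefore also given where leaving it out changed a call of the 10 genes. They are also given for some other differences that it moved.

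The letters of a C/EBP-ATF response element, the kind of site that ATF4 binds as a dimer with a C/EBP protein, were looked for in RefSeq promoter windows (GRCh38.p14, 250 bases before to 50 after each annotated start). TGATGNAA was searched on both strands. All 10 genes had at least 1 window, and 2 of them, CHAC1 and ASNS, held the letters, against 4.46% of 27305 genes. TGACGTCA, a cAMP response element that reads the same on both strands and shares no match with the first motif here, was searched after the sequences had been seen. It occurred in PPP1R15A alone among the 10 and in 2.25% of all genes. These 3 sites are shown because they are the matches found among the 10 genes. With siARID1A, CHAC1 and ASNS were lower and PPP1R15A higher, where 6 of the 10 genes and 45.2% of all tested genes passed. Capitals mark the motif, and each run is 5′ to 3′ on the gene's strand.
CHAC1, chr15:40953251-40953280, plus strand: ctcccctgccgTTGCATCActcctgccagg
ASNS, chr7:97872458-97872487, minus strand: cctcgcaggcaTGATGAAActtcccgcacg
PPP1R15A, chr19:48872352-48872381, plus strand: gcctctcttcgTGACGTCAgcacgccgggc
The motifs began 209, 68 and 58 bases before the RefSeq start of CHAC1, ASNS and PPP1R15A. In GENCODE 29 the CHAC1 and ASNS stretches overlap an annotated exon of their gene, and the PPP1R15A stretch lies upstream of the gene. CHAC1 carries the motif on the opposite strand. A match of letters describes the window and does not show that a factor binds there.

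With exon length taken into account, ATF4 was the most abundant of the 10 genes in every group. In TPM (length-scaled levels, from exon lengths of GENCODE 29), the WT levels were 808 ± 103 for ATF4, 309 ± 105 for CEBPB, 306 ± 39.3 for DDIT4 and 120 ± 17.9 for TRIB3. ATF5 (38.4 ± 8.39), PPP1R15A (37.8 ± 8.46), CHAC1 (29.8 ± 22.1), VLDLR (29.8 ± 4.48) and DDIT3 (23.8 ± 12.9) lay within 1 SD of a neighbour in that order, and so did CEBPB and DDIT4. ASNS was lowest, at 4.62 ± 1.17 TPM. Its level is uncertain, since another transcript shares 44.6% of its exon bases on the same strand. How reads of shared bases were counted is not stated, which also bears on ATF5 and DDIT3, with 21.2% and 27.2% shared with a gene on the opposite strand. PPP1R15A moved from the sixth place in WT to the fourth in siARID1A (165 ± 29.9 TPM) and in the combined group (133 ± 20.5 TPM). All other levels below are TMM-scaled CPM, which compare 1 gene between libraries.

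**Figure D1:**
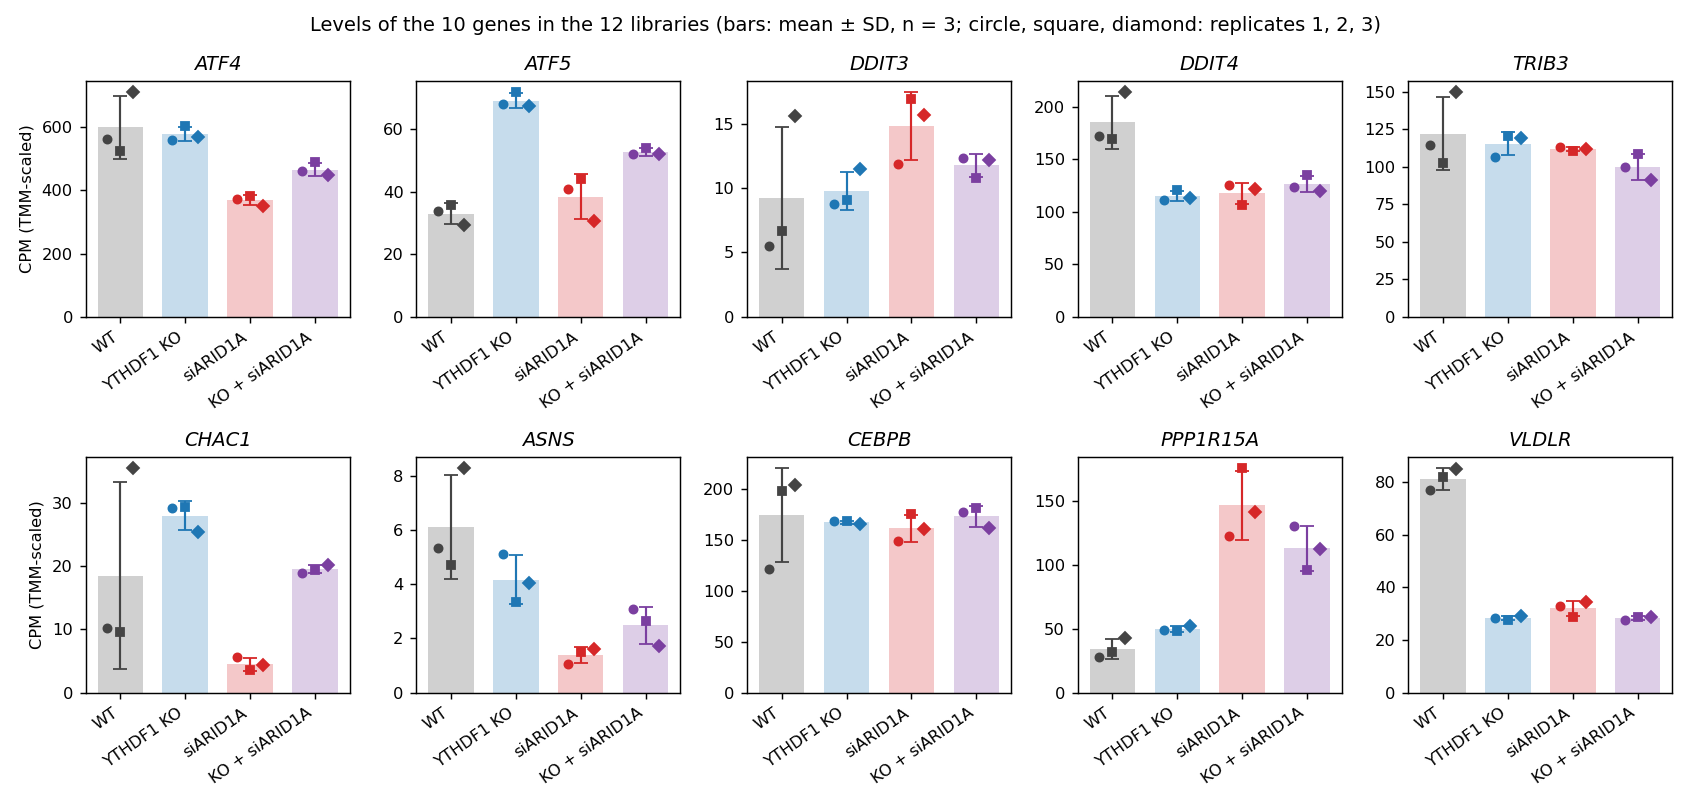
Level of each of the 10 genes in CPM (vertical axes, from 0) in WT, YTHDF1 KO, siARID1A and the combined group; bars are means, whiskers SD over 3 libraries, and symbols mark replicates 1, 2 and 3. ATF4 was lowest in siARID1A (351 to 381 CPM), PPP1R15A highest there (122 to 176 CPM), and WT replicate 3 stood far above the other WT libraries for CHAC1 and DDIT3.

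ATF4 (ENSG00000128272, chr22:39519695-39522685, plus strand, GRCh38, protein coding) fell with siARID1A and did not pass the test with YTHDF1 KO. The WT libraries held 563, 524 and 710 CPM, the YTHDF1 KO libraries 560, 603 and 570, those with siARID1A 374, 381 and 351 and the combined ones 460, 489 and 448. Every siARID1A library lay below every combined library, and both groups lay below all WT and YTHDF1 KO libraries. Against WT, ATF4 fell by 0.70 ± 0.14 (SE) on the log2 scale with siARID1A (edgeR, adjusted p = 4.44e-07) and by 0.36 ± 0.14 in the combined group (adjusted p = 0.00108), which became -0.22 without WT replicate 3 (adjusted p = 0.017). The YTHDF1 KO difference was -0.05 ± 0.14 (adjusted p = 0.673), and 0.09 without WT replicate 3 (adjusted p = 0.387). The combined group was 0.34 ± 0.05 higher than siARID1A (adjusted p = 0.00346) and 0.31 ± 0.05 lower than YTHDF1 KO (adjusted p = 0.0103). The last call was lost without YTHDF1 KO replicate 2 (-0.28, adjusted p = 0.0558) or combined replicate 3 (-0.29, adjusted p = 0.0533). Fewer cells with a transcript and less of it per cell cannot be told apart in RNA from bulk cultures. Of the processed pseudogenes of ATF4, the highest level in any library was 0.39 CPM, for ATF4P3.

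**Figure D2:**
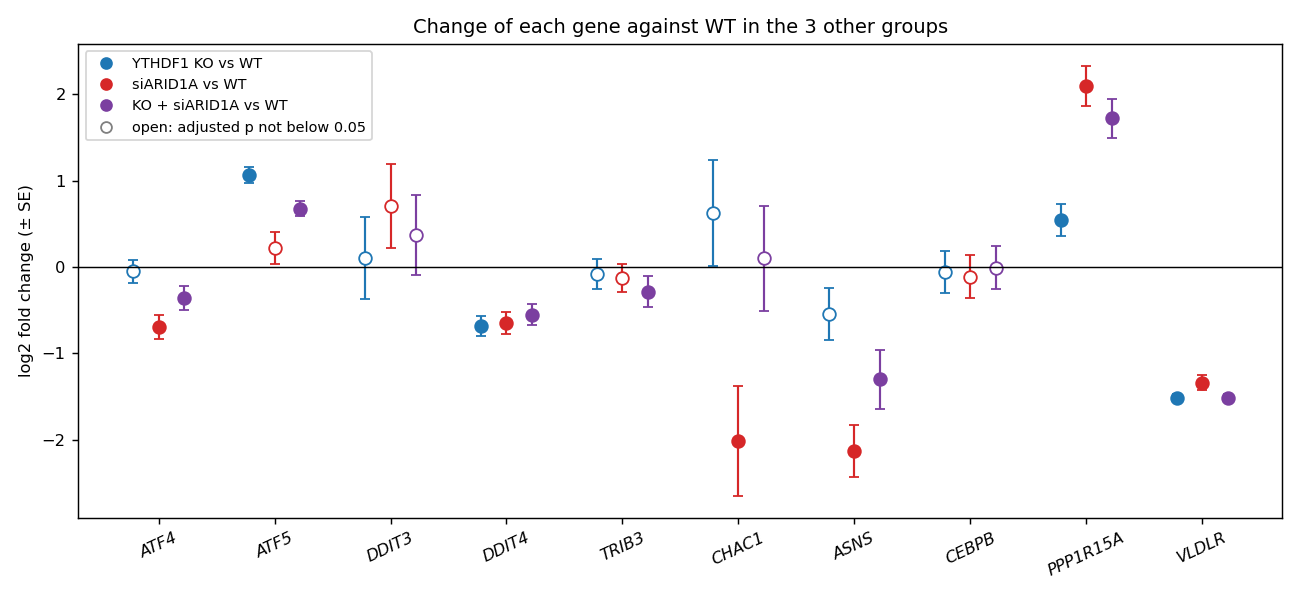
log2 fold change (vertical axis, ± SE) of each of the 10 genes against WT in YTHDF1 KO, siARID1A and the combined group; filled points had an adjusted p below 0.05. The 3 comparisons share the WT libraries. PPP1R15A stood above 0 and VLDLR and DDIT4 below 0 in all 3, while ATF4, CHAC1 and ASNS were lowest with siARID1A.

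With YTHDF1 KO, 4 of the 10 genes passed the test, 2 higher and 2 lower, where 40.4% of all tested genes passed, 19.6% higher and 20.8% lower. ATF5 and PPP1R15A rose and DDIT4 and VLDLR fell, so the count was close to the background. With siARID1A 6 passed, 1 higher (PPP1R15A) and 5 lower (ATF4, DDIT4, CHAC1, ASNS and VLDLR), where 45.2% of all genes passed, 22.1% higher and 23.0% lower. In the combined group against WT 7 passed, 2 higher and 5 lower, where 51.5% of all genes passed, 25.6% higher and 25.9% lower. The median log2 fold change over the 10 genes was -0.06 with YTHDF1 KO, -0.39 with siARID1A and -0.15 in the combined group, beside medians over all tested genes of -0.01, -0.01 and -0.01. Without WT replicate 3 these counts were 6 (4 higher, 2 lower), 7 (2 higher, 5 lower) and 8 (4 higher, 4 lower).

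ATF5 (ENSG00000169136, chr19:49928702-49933935, plus strand), a related transcription factor that is also controlled by upstream reading frames, rose with YTHDF1 KO. Levels were 33.8, 35.8 and 29.3 CPM for the WT libraries, 68.1, 71.8 and 67.5 for YTHDF1 KO, 40.9, 44.0 and 30.5 for siARID1A, and the combined libraries gave 52.1, 54.1 and 52.0. All YTHDF1 KO libraries were above all others, the combined libraries came next, and WT and siARID1A overlapped. The rise with YTHDF1 KO was 2.09-fold (log2 1.07 ± 0.09, adjusted p = 5.56e-09) and that in the combined group 1.60-fold (log2 0.67 ± 0.09, adjusted p = 4.56e-06). With siARID1A alone the log2 difference was 0.22 ± 0.18 (adjusted p = 0.0818), and it passed without WT replicate 2 (0.30, adjusted p = 0.0192) or siARID1A replicate 3 (0.36, adjusted p = 0.00197). Without WT replicate 3 it was 0.14 and did not pass (adjusted p = 0.314). NUP62 shares 21.2% of ATF5 exon bases on the opposite strand; its log2 difference was 0.07 with YTHDF1 KO (adjusted p = 0.538), and it fell by 0.96 with siARID1A. Counting by strand is not stated, so reads of the shared bases are uncertain.

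DDIT3 (ENSG00000175197, chr12:57516588-57521737, minus strand), which encodes the stress factor CHOP, did not pass in any comparison in the fit of all 12 libraries with 1 coefficient per group. In replicate order, WT gave 5.50, 6.63 and 15.6 CPM, YTHDF1 KO 8.80, 9.07 and 11.5, siARID1A 11.9, 16.9 and 15.7 and the combined treatment 12.4, 10.8 and 12.2. WT replicate 3 lay within the siARID1A range, while the other 2 WT libraries lay below every library of the other groups. The siARID1A difference was 0.70 ± 0.48 on the log2 scale (adjusted p = 0.109). Without WT replicate 3, DDIT3 was higher by 0.68 in YTHDF1 KO (adjusted p = 0.00145), by 1.28 in siARID1A (adjusted p = 8.23e-07) and by 0.95 in the combined group (adjusted p = 2.86e-05). The combined group differed from siARID1A by -0.33 ± 0.17 (adjusted p = 0.479), and in a fit of these groups alone by -0.35, which passed (adjusted p = 0.0316). MARS1, an aminoacyl-tRNA synthetase gene and itself an ATF4 target, covers 27.2% of DDIT3 exon bases on the opposite strand and stood at 304 ± 24.1 CPM in WT. Its log2 difference was -0.65 with siARID1A (adjusted p = 4.21e-08) and 0.45 in the combined group against siARID1A (adjusted p = 1.2e-05). Counting by strand is not stated, so DDIT3 reads of the shared bases are uncertain.

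CEBPB (ENSG00000172216, chr20:50190734-50192689, plus strand), a C/EBP factor that can pair with ATF4, also did not pass in any comparison in that fit. The WT libraries held 121, 198 and 204 CPM, the YTHDF1 KO libraries 168, 168 and 165, those with siARID1A 148, 175 and 161 and the combined ones 177, 181 and 161. WT replicate 1 was the lowest of the 12 libraries and the other 2 WT libraries were the highest. Without WT replicate 1, CEBPB was lower than WT by a log2 difference of -0.26 in YTHDF1 KO (adjusted p = 0.00795), -0.32 in siARID1A (adjusted p = 0.0016) and -0.22 in the combined group (adjusted p = 0.0224).

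CHAC1 (ENSG00000128965, chr15:40952962-40956519, plus strand), an enzyme that degrades glutathione, fell with siARID1A in WT cells and was several times higher in the combined group than in siARID1A. Levels were 10.3, 9.66 and 35.5 CPM for the WT libraries, 29.2, 29.4 and 25.4 for YTHDF1 KO, 5.62, 3.54 and 4.35 for siARID1A, and the combined libraries gave 18.9, 19.4 and 20.2. The WT libraries spanned the YTHDF1 KO and combined ranges, and the siARID1A libraries were below all others. CHAC1 fell by 2.02 ± 0.64 on the log2 scale with siARID1A (adjusted p = 0.0112), and the combined group was 4.33-fold above siARID1A (log2 2.11 ± 0.19, adjusted p = 0.0108). In a fit of WT and siARID1A alone the change was -2.01 and did not pass (adjusted p = 0.066). Without WT replicate 3 it was -1.15 (adjusted p = 7.21e-07). YTHDF1 KO then stood 1.49 above WT (adjusted p = 3.35e-09), where it was 0.62 ± 0.61 with all libraries (adjusted p = 0.32). The combined group was then 0.97 above WT (adjusted p = 1.76e-06), where it was 0.10 ± 0.61 with all libraries (adjusted p = 0.878). It was 0.52 below YTHDF1 KO with and without WT replicate 3. That difference passed without this library (adjusted p = 0.00119) and did not pass with all libraries (adjusted p = 0.475).

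ASNS (ENSG00000070669, chr7:97852118-97872542, minus strand), asparagine synthetase, followed the same order of groups as ATF4. In replicate order, WT gave 5.35, 4.71 and 8.29 CPM, YTHDF1 KO 5.13, 3.34 and 4.04, siARID1A 1.06, 1.5 and 1.6 and the combined treatment 3.07, 2.63 and 1.74. WT and YTHDF1 KO overlapped, the combined libraries lay below both, and the siARID1A libraries lay below all others. ASNS fell by 2.13 ± 0.30 on the log2 scale with siARID1A (adjusted p = 2.59e-07) and by 1.30 ± 0.34 in the combined group (adjusted p = 5.95e-05). The YTHDF1 KO difference was -0.54 ± 0.30 (adjusted p = 0.0598) and was -0.27 without WT replicate 3 (adjusted p = 0.393), and it passed when WT replicate 2 (-0.69), YTHDF1 KO replicate 1 (-0.72) or combined replicate 3 (-0.54) was left out. The combined group was 0.83 ± 0.30 above siARID1A (adjusted p = 0.0169), which did not pass without siARID1A replicate 1 (0.67), combined replicate 1 (0.66) or combined replicate 2 (0.78). It was 0.76 ± 0.30 below YTHDF1 KO (adjusted p = 0.0237), a call lost when YTHDF1 KO replicate 1 (-0.58), YTHDF1 KO replicate 3 (-0.78) or combined replicate 3 (-0.55) was left out. The level is uncertain, since a transcript with no symbol (ENSG00000284707) shares 44.6% of ASNS exon bases on the same strand, and how the authors counted reads of shared bases is not stated. That transcript's log2 difference with siARID1A was 0.30 (adjusted p = 0.455).

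TRIB3 (ENSG00000101255, chr20:362835-397559, plus strand), a pseudokinase that restrains ATF4 and AKT, had group means from 99.97 to 122 CPM. The WT libraries held 114, 102 and 150 CPM, the YTHDF1 KO libraries 106, 121 and 119, those with siARID1A 113, 111 and 112 and the combined ones 99.8, 109 and 91.5. The combined group was lower than WT by 0.29 ± 0.18 on the log2 scale (adjusted p = 0.0239), but the libraries of these groups overlapped. The call was lost without WT replicate 3 (-0.12, adjusted p = 0.245), combined replicate 1 (-0.28) or combined replicate 3 (-0.23), on library totals without scaling factors (-0.15, adjusted p = 0.194) and in a fit of these groups alone (-0.29, adjusted p = 0.0666). Against YTHDF1 KO the combined group differed by -0.21 ± 0.09 (adjusted p = 0.163), and by -0.21 without WT replicate 3, which passed (adjusted p = 0.0396). The YTHDF1 KO and siARID1A differences were -0.08 ± 0.17 (adjusted p = 0.57) and -0.13 ± 0.16 (adjusted p = 0.339). Without WT replicate 3 they were 0.09 (adjusted p = 0.409) and 0.04 (adjusted p = 0.717).

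PPP1R15A (ENSG00000087074, chr19:48872392-48876057, plus strand) encodes GADD34, which directs a phosphatase to eIF2 and so ends the response. It rose most of the 10 genes with siARID1A. Levels were 28.0, 32.0 and 42.9 CPM for the WT libraries, 48.7, 48.5 and 52.3 for YTHDF1 KO, 122, 176 and 141 for siARID1A, and the combined libraries gave 131, 95.6 and 112. WT was lowest, YTHDF1 KO next, and both groups with siARID1A lay above these and overlapped each other. The rise against WT was 4.28-fold with siARID1A (log2 2.10 ± 0.24, adjusted p = 8.32e-07) and 3.29-fold in the combined group (log2 1.72 ± 0.22, adjusted p = 3.17e-06). With YTHDF1 KO it was 1.46-fold (log2 0.54 ± 0.18, adjusted p = 0.0233) and this call was lost when any of 4 libraries was left out, WT replicate 1 (log2 0.42, adjusted p = 0.0732), WT replicate 2 (0.51, adjusted p = 0.117), YTHDF1 KO replicate 2 (0.56, adjusted p = 0.0511) or YTHDF1 KO replicate 3 (0.51, adjusted p = 0.0667). The combined group was also 2.26-fold above YTHDF1 KO (log2 1.18 ± 0.13, adjusted p = 2.79e-04). Against siARID1A it differed by -0.38 ± 0.20 (adjusted p = 0.0977), and by -0.37 without WT replicate 3, which passed (adjusted p = 0.032).

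DDIT4 (ENSG00000168209, chr10:72273920-72276036, plus strand), an inhibitor of mTORC1 signalling, was lower than WT in each of the 3 other groups. In replicate order, WT gave 172, 169 and 214 CPM, YTHDF1 KO 111, 121 and 113, siARID1A 125, 106 and 122 and the combined treatment 123, 135 and 120. The WT libraries lay above all 9 others, which overlapped one another. DDIT4 fell by 0.68 ± 0.11 with YTHDF1 KO (adjusted p = 3.21e-07), by 0.65 ± 0.13 with siARID1A (adjusted p = 7.08e-07) and by 0.55 ± 0.12 in the combined group (adjusted p = 4.9e-06). The combined group differed from YTHDF1 KO by 0.13 ± 0.06 (adjusted p = 0.298) and from siARID1A by 0.10 ± 0.09 (adjusted p = 0.397). DDIT4-AS1, antisense over 41.2% of DDIT4 exon bases, had 0 counts in all 12 libraries.

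VLDLR (ENSG00000147852, chr9:2621834-2660053, plus strand), a lipoprotein receptor that ATF4 can induce, was likewise highest in WT, with larger differences than DDIT4. The WT libraries held 76.8, 81.8 and 84.9 CPM, the YTHDF1 KO libraries 28.2, 27.7 and 29.1, those with siARID1A 33.1, 28.7 and 34.3 and the combined ones 27.6, 28.8 and 28.8. Every WT library was above every other library, and the 3 other groups overlapped. VLDLR fell by 1.52 ± 0.05 with YTHDF1 KO (adjusted p = 5.25e-14), by 1.34 ± 0.09 with siARID1A (adjusted p = 1.21e-12) and by 1.51 ± 0.05 in the combined group (adjusted p = 3.8e-14). The combined group differed from YTHDF1 KO by 0.0031, with a 95% interval from -0.064 to 0.07. Genes of chromosome 9 had a lower median than other genes in these comparisons, -0.36, -0.40 and -0.38 over 711 genes, but the 20 tested genes nearest to VLDLR had medians of 0.06, 0.19 and 0.12. VLDLR-AS1, antisense over 7.9% of VLDLR exon bases, fell too, by 1.21, 2.51 and 1.64.

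The effect of siARID1A was compared between the 2 backgrounds by the interaction, which is the log2 change with siARID1A in YTHDF1 KO cells minus that in WT cells. It passed for 6 of the 10 genes, 4 positive and 2 negative, where 17.1% of all tested genes passed, 8.87% positive and 8.22% negative. For ATF4 the change was -0.70 in WT and -0.31 in YTHDF1 KO cells, a difference of 0.39 ± 0.15 (adjusted p = 0.0296). This ATF4 call was lost without WT replicate 3 (0.25, adjusted p = 0.0989), YTHDF1 KO replicate 1 (adjusted p = 0.0802) or 3 (adjusted p = 0.072), siARID1A replicate 3 (adjusted p = 0.0692) or combined replicate 2 (adjusted p = 0.0871). For ASNS the changes were -2.13 and -0.76, a difference of 1.37 ± 0.42 (adjusted p = 0.00733). For DDIT4 they were -0.65 and 0.13, a difference of 0.78 ± 0.14 (adjusted p = 3.9e-05), and for VLDLR -1.34 and 0.0031, a difference of 1.34 ± 0.09 (adjusted p = 5.99e-09). In these 4 genes the log2 change with siARID1A was less negative in YTHDF1 KO cells than in WT cells. For DDIT4 and VLDLR, all WT libraries lay above those of the other groups, which overlapped one another. A level particular to these WT libraries would give the same interaction, and it cannot be told apart here from an effect of siARID1A that depends on YTHDF1. The interaction was also shifted over chromosome 9, where VLDLR lies. Its median was 0.39 over 711 other genes there, 0.015 over genes of other chromosomes and 0.05 over the 20 tested genes nearest to VLDLR. Against WT, the chromosome 9 median was -0.36 with YTHDF1 KO, -0.40 with siARID1A and -0.38 in the combined group. Between the combined group and YTHDF1 KO it was 0.006. The part of this shift in the VLDLR difference was not tested. PPP1R15A rose by 2.10 in WT and 1.18 in YTHDF1 KO cells, a difference of -0.92 ± 0.27 (adjusted p = 0.0186) that did not pass without WT replicate 2 (-0.90, adjusted p = 0.0776) or siARID1A replicate 3 (-0.94, adjusted p = 0.0517). ATF5 differed by 0.22 in WT and fell by 0.39 in YTHDF1 KO cells, a difference of -0.61 ± 0.19 (adjusted p = 0.00348). CHAC1 had a difference of 1.49 ± 0.64 that did not pass (adjusted p = 0.187); without WT replicate 3 it was 0.62 (adjusted p = 0.0187). The DDIT3 difference was -0.43 ± 0.50 (adjusted p = 0.606), and -1.02 without WT replicate 3 (adjusted p = 0.00137). That of CEBPB was 0.16 ± 0.26 (adjusted p = 0.686), and 0.37 without WT replicate 1 (adjusted p = 0.0146). Without WT replicate 3 the CEBPB difference was 0.035 (adjusted p = 0.94). The interaction passed for 7 of the 10 genes, 4 positive and 3 negative, when WT replicate 3 was left out.

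**Figure D3:**
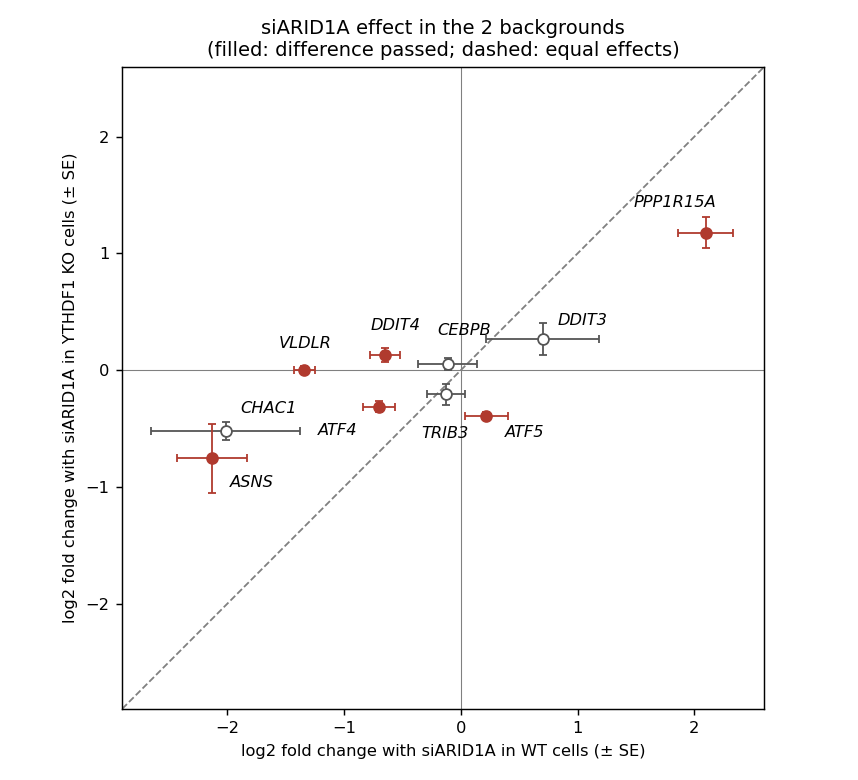
log2 fold change with siARID1A in WT cells (horizontal axis) against that in YTHDF1 KO cells (vertical axis) for the 10 genes, with SE bars; filled points passed the test of the difference, and the dashed line marks equal changes. VLDLR and DDIT4 lie near 0 on the vertical axis, and PPP1R15A is the gene with a rise above 1 on both axes.

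Against YTHDF1 KO, the combined group had 4 of the 10 genes past the threshold, PPP1R15A higher and ATF4, ATF5 and ASNS lower, where 23.4% of all genes passed, 12.5% higher and 10.9% lower. Against siARID1A it had 4, all higher (ATF4, ATF5, CHAC1 and ASNS), where 35.4% of all genes passed, 18.2% higher and 17.2% lower. Without WT replicate 3, which enters these comparisons through the shared estimate of spread, the counts were 6 (1 higher, 5 lower) and 5 (4 higher, 1 lower). Without combined replicate 3, only 2 passed against YTHDF1 KO.

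WT replicate 3 was high for most of the 10 genes. Its level was 3.55-fold the geometric mean of the other 2 WT libraries for CHAC1, 2.57-fold for DDIT3, 1.65-fold for ASNS, 1.43-fold for PPP1R15A, 1.38-fold for TRIB3 and 1.31-fold for ATF4. The median log2 difference was 0.43 over the 10 genes, 0.18 over 54 other ATF4 target genes and 0.00 over all 18524 tested genes. WT replicate 3 was the highest WT library for 90.0% of the 10 genes, 68.5% of the other ATF4 targets and 31.1% of all tested genes. In the 3 other groups such log2 differences ran from -0.69, for ASNS in combined replicate 3, to 0.51, for CHAC1 in siARID1A replicate 1 and for ASNS in combined replicate 1. The values are a description of 1 library, which was noticed in these data, and no test was made of it.

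**Figure D4:**
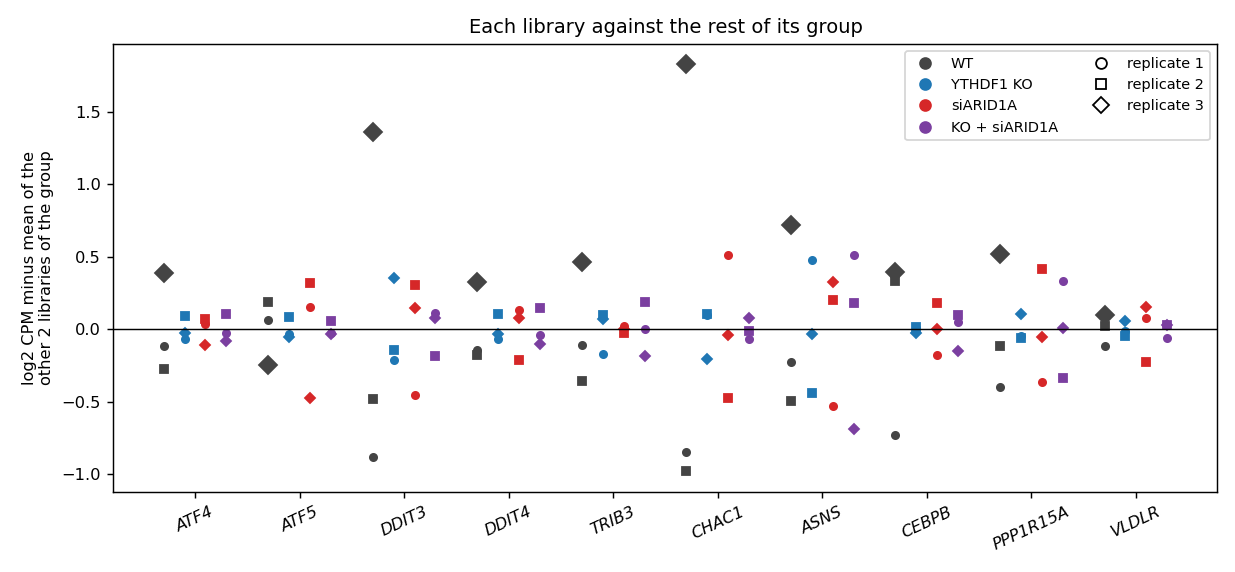
log2 CPM of each library minus the mean of the other 2 libraries of its group (vertical axis) for the 10 genes; colours mark groups and symbols replicates, with WT replicate 3 drawn larger. WT replicate 3 was 1.83 above the other WT libraries for CHAC1 and 1.36 for DDIT3, and below them for ATF5 alone.

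Across the 12 libraries the 10 genes did not move as 1 block. Pearson correlations of log2 CPM were 0.92 for ATF4 with ASNS, 0.83 for ATF4 with CHAC1, 0.93 for DDIT4 with VLDLR and 0.76 for DDIT3 with PPP1R15A. They were -0.83 for ATF4 with PPP1R15A and -0.85 for ASNS with PPP1R15A. These are descriptions over 12 libraries that share 4 groups. Among genes with a mean of at least 10 CPM, the one most like ATF4 across the libraries was CARS1 (r = 0.98), followed by DBF4 and SLU7. CARS1 is a cysteinyl-tRNA synthetase gene of the ATF4 target list. The most like gene was PPM1D for PPP1R15A (r = 0.997), POMGNT1 for ATF5 (r = 0.99), ZNF330 for CHAC1 (r = 0.96), CDC25C for DDIT4 (r = 0.95), RNF214 for ASNS (r = 0.95), POMZP3 for DDIT3 (r = 0.94), IER3IP1 for CEBPB (r = 0.89), RAB32 for TRIB3 (r = 0.87) and FER1L6 for VLDLR (r = 0.99).

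Upstream of ATF4, the genes of 3 of the 4 eIF2 kinases passed the test with siARID1A, EIF2AK1 lower and EIF2AK2 and EIF2AK3 higher. Of 23 genes for eIF2 kinases, eIF2, eIF2B, its phosphatases and related regulators, 4 were higher and 6 lower with siARID1A, where 22.1% of all tested genes were higher and 23.0% lower, so the count was close to the background. With YTHDF1 KO 1 was higher and 5 lower, where 19.6% of all genes were higher and 20.8% lower, and on library totals without scaling factors 8 were higher and 5 lower. The list's medians were -0.10 with siARID1A and -0.04 with YTHDF1 KO. Without WT replicate 3, 5 were higher and 5 lower with YTHDF1 KO. EIF2AK1, the haem-regulated kinase HRI, was lower by 0.51 ± 0.05 with siARID1A (268.7 ± 10.04 CPM in WT, 188 ± 9.30 in siARID1A), a fall that passed (adjusted p = 1.21e-06). EIF2AK2, the kinase PKR that binds double-stranded RNA, was higher by 0.35 ± 0.06 with siARID1A (adjusted p = 2.94e-04) and by 0.58 ± 0.06 in the combined group (adjusted p = 2.3e-07). EIF2AK3, the endoplasmic reticulum kinase PERK, was higher by 0.31 ± 0.13 with siARID1A (adjusted p = 0.00856, lost without WT replicate 1 at 0.21 or siARID1A replicate 3 at 0.24) and lower by 0.37 ± 0.12 with YTHDF1 KO (adjusted p = 0.0028). EIF2AK4, the amino acid sensor GCN2, and EIF2S1, the subunit that is phosphorylated, passed in none of the comparisons. PPP1R15B, a phosphatase gene of the list, stood at 97.2% of its WT mean with siARID1A and did not pass there.

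Downstream of ATF4, more of its target genes fell than rose with siARID1A. The targets counted, like the other lists here, were chosen with earlier results of these data known. Of 54 tested genes in a list of other ATF4 targets, 33 were lower and 8 higher, with a median of -0.57 where the median of all genes was -0.01 and 23.0% of all genes were lower and 22.1% higher. With YTHDF1 KO 21 were lower and 13 higher (median -0.07), where 20.8% of all genes were lower and 19.6% higher, and on library totals without scaling factors 13 were lower and 14 higher. In the combined group 34 were lower and 12 higher (median -0.36), where 25.9% of all genes were lower and 25.6% higher. Against siARID1A the combined group had 25 of them higher and 11 lower (median 0.17), where 18.2% of all genes were higher and 17.2% lower. The interaction passed as positive for 23 and as negative for 4 (median 0.30), where the shares of all genes were 8.87% and 8.22%. PSAT1, of serine synthesis, had means of 642 ± 65.6 CPM (WT), 482 ± 16.2 (YTHDF1 KO), 173 ± 9.06 (siARID1A) and 286 ± 15.0 (combined). It fell by 1.89 ± 0.09 with siARID1A (adjusted p = 2.76e-15). MTHFD2, of mitochondrial one-carbon metabolism, fell by 1.70 ± 0.15 (adjusted p = 6.48e-13), and STC2, a secreted glycoprotein, by 1.97 ± 0.29 (adjusted p = 1.15e-05). CEBPG, a C/EBP partner of ATF4, fell by 0.34 ± 0.12 (adjusted p = 9.72e-04), a change of -0.22 without WT replicate 3 (adjusted p = 0.0117). ATF3, a stress-induced repressor, rose by 0.77 ± 0.34 with siARID1A (adjusted p = 0.00604), and by 1.16 without WT replicate 3 (adjusted p = 3.43e-08). GDF15, a stress cytokine, rose by 2.01 ± 0.29 with siARID1A (adjusted p = 1.55e-05) and by 2.57 ± 0.27 with YTHDF1 KO (adjusted p = 2.37e-06), from 38.9 ± 12.8 CPM in WT to 156 ± 19.0 and 229 ± 10.7. Of the amino acid transporters, SLC7A5 fell by 1.18 ± 0.06 with YTHDF1 KO (adjusted p = 2.27e-11), and SLC7A11 by 0.34 ± 0.10 (adjusted p = 0.00121). With siARID1A, SLC7A11 stood at 108% of its WT mean and did not pass. SESN2 and NUPR1, of the same list, stood at 96.9% and 120% with siARID1A and did not pass either. Without WT replicate 3 the counts of this list were 32 lower and 10 higher with siARID1A and 14 lower and 15 higher with YTHDF1 KO.

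For the other branches of the unfolded protein response, RNA of 24 genes listed as ATF6 or XBP1 targets was followed, most of them chaperones and folding enzymes. The list also holds XBP1, ATF6 and ERN1 themselves, and the activity of ATF6 and XBP1 was not measured. With siARID1A 14 were lower and 5 higher (median -0.45), where 23.0% of all genes were lower and 22.1% higher. Against siARID1A the combined group had 16 higher and 1 lower (median 0.42), where 18.2% of all genes were higher and 17.2% lower. With YTHDF1 KO 4 were lower and 8 higher (median -0.02), where 20.8% of all genes were lower and 19.6% higher. HSPA5, the chaperone BiP, had means of 1981 ± 45.6 CPM (WT), 1456 ± 71.7 (YTHDF1 KO), 735 ± 11.2 (siARID1A) and 1210.3 ± 56.2 (combined), and fell by 1.43 ± 0.02 with siARID1A (adjusted p = 1.03e-13). HYOU1, a nucleotide exchange factor for BiP, fell by 1.05 ± 0.06 (adjusted p = 2.31e-11). HERPUD1, of degradation at the endoplasmic reticulum, fell by 0.70 ± 0.10 (adjusted p = 4.39e-08). It was counted in the list of other ATF4 targets and is not among these 24 genes. XBP1 itself fell by 0.61 ± 0.18 (adjusted p = 1.18e-04). DNAJB9 went the other way and rose by 0.81 ± 0.19 with siARID1A (adjusted p = 3.32e-06), by 0.73 ± 0.15 with YTHDF1 KO (adjusted p = 1.42e-05) and by 1.23 ± 0.16 in the combined group (adjusted p = 3.57e-09).

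**Figure D5:**
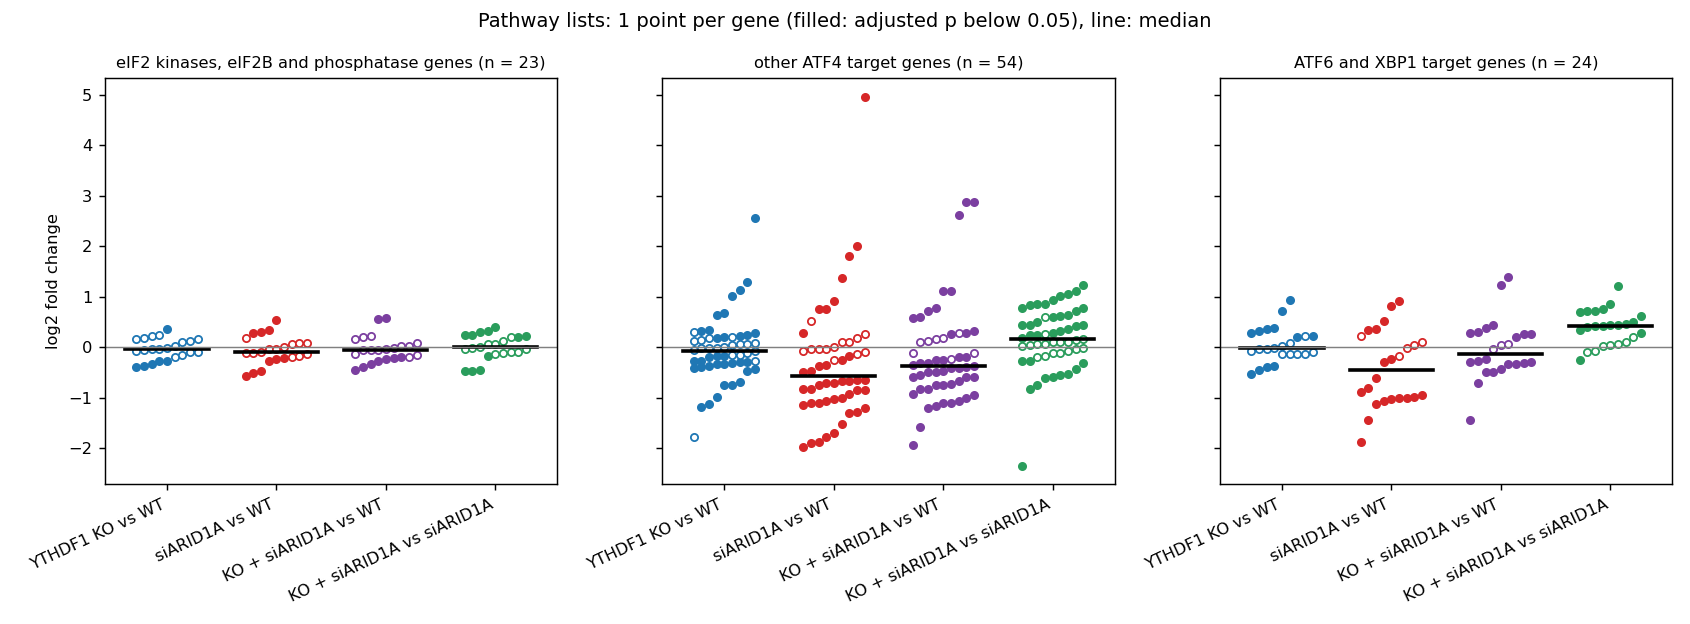
log2 fold change (vertical axis) of every tested gene in 3 lists around ATF4, in 4 comparisons; filled points had an adjusted p below 0.05 and black lines are medians. The medians of the ATF4 targets and of the ATF6 and XBP1 targets lie lowest with siARID1A, at -0.57 and -0.45, and above 0 in the combined group against siARID1A, at 0.17 and 0.42.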

How the data were processed

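RNA was sequenced in 12 libraries of 4 groups, made with a stranded kit per the labels. The authors deposited 1 table of raw counts per Ensembl gene (60617 genes). The submitters' processing notes name Trim Galore 0.6.6, STAR 2.7.0d, featureCounts 2.0.1, edgeR 3.32.1 and GRCh38; the annotation release, the strand setting and the treatment of reads shared by overlapping genes are not given in the sources used here. Library totals were 30220717 to 45042635 counts.

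In R 4.3.3, edgeR 4.0.16 fitted all 12 libraries together, with 1 coefficient per group, filterByExpr (18524 genes kept) and TMM scaling. The robust quasi-likelihood F test was two-sided, with Benjamini-Hochberg adjustment over all tested genes and a threshold of 0.05. It was checked on simulated counts. SEs come from replicate SDs of log2 CPM with a prior count of 2. The WT libraries are shared by the comparisons against WT. A supplied name table gave symbols for 60261 identifiers, and GENCODE 29 gave positions and exon lengths. Alternatives were other scalings, no filter, DESeq2 1.42.0, separate fits, a replicate block and leaving out each library. The 10 genes and all lists were chosen with earlier results of these data known. The list genes named were set by symbol, and the genes most like each of the 10 were the 3 highest Pearson correlations over the 12 libraries among genes with a mean of at least 10 CPM. No list was given a test of its own.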

Additional observations from a re-analysis of the deposited data

Results flagged for a closer look

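For 6 of the 10 genes the change with siARID1A differed between YTHDF1 KO and WT cells by the interaction test, where 17.1% of all tested genes passed. The log2 difference was 0.39 for ATF4, -0.61 for ATF5, 0.78 for DDIT4, 1.37 for ASNS, -0.92 for PPP1R15A and 1.34 for VLDLR. All but those of ATF5 and PPP1R15A were positive. The adjusted p, by edgeR, ran from 5.99e-09 (VLDLR) to 0.0296 (ATF4). With 1 library left out the number of genes that passed ran from 4 to 7. The ATF4 difference did not pass when any 1 of 5 libraries was left out (0.25 to 0.38), nor that of PPP1R15A without WT replicate 2 (-0.90) or siARID1A replicate 3 (-0.94). For VLDLR, the median interaction over 711 other genes of its chromosome 9 was 0.39, beside 0.015 over genes of other chromosomes. For DDIT4 and VLDLR, WT lay above all other groups, so a level particular to the WT libraries cannot be told apart from a difference between backgrounds.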

How the results depend on the processing

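Over all alternatives, 1102 recomputed log2 fold changes of the 10 genes kept their direction and their side of the threshold, 34 newly passed, 26 no longer passed and 28 turned sign, none of which had passed. On library totals without scaling factors, ATF4 (0.043), TRIB3 (0.015) and CEBPB (0.024) turned sign in YTHDF1 KO against WT, and so did CEBPB in the combined group against WT (0.12). That setting moved the share of higher among called genes from 48.5% to 61.2% with YTHDF1 KO, from 49.7% to 63.4% in the combined group against WT, from 53.5% to 63.5% against YTHDF1 KO and from 51.3% to 62.2% against siARID1A. It shifted the median of all genes to at most 0.13, and 13 eIF2 pathway genes passed with YTHDF1 KO (8 higher, 5 lower), where 6 did (1 higher, 5 lower). Between the combined group and YTHDF1 KO, VLDLR turned to -0.0014 with scaling factors made without chromosomes 2 and 9, and to -0.0048 without a filter on low counts. In a fit of these groups alone 9 eIF2 pathway genes passed in place of 3. The cause was not tested.

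With each library left out in turn, the 10 genes had 3 to 6, 6 to 7 and 6 to 8 calls against WT in YTHDF1 KO, siARID1A and the combined group. The combined group had 2 to 6 against YTHDF1 KO and 3 to 5 against siARID1A, and the interaction 4 to 7. The eIF2 pathway counts ran from 5 to 10, 8 to 11, 7 to 12, 1 to 5, 7 to 11 and 1 to 2 in the same order. Log2 fold changes that turned sign when a library was left out ranged, in YTHDF1 KO against WT, from -0.13 to 0.089 for ATF4, -0.16 to 0.68 for DDIT3, -0.18 to 0.091 for TRIB3 and -0.26 to 0.069 for CEBPB. With siARID1A they ranged from -0.22 to 0.042 for TRIB3 and -0.32 to 0.013 for CEBPB, and in the combined group against WT from -0.21 to 0.97 for CHAC1 and -0.22 to 0.12 for CEBPB. The TRIB3 interaction ranged from -0.25 to 0.0057, and VLDLR in the combined group against YTHDF1 KO from -0.014 to 0.023.

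No label ties libraries of 1 number, and of 18 same-number pairs 0 had deviations correlated above 0.1 (-0.042 to 0.033), while 3 of 12 libraries correlated best with their own number. With the replicate block, the ATF4 interaction did not pass (0.39, adjusted p = 0.05003 by edgeR), which left 5 of the 10 genes (3 positive, 2 negative), DDIT3 passed with siARID1A (0.77, adjusted p = 0.0171), and CEBPB in the combined group turned to 0.010.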
